A study of Drosophila melanogaster with 2 samples.

Results

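Glycolysis breaks glucose down to pyruvate in the cytosol, and 8 genes that encode its enzymes were examined for binding of the protein CG12299 in Drosophila melanogaster embryos. They are Pgi, Pfk, Tpi, Gapdh1, Gapdh2, Pgk, Pglym78 and Eno, and they were taken from the 18277 genes of the annotation. The list was chosen by name with the peak values of these data already known, among them the high signalValue of the peak at Gapdh2. The presence of that peak and its rank are therefore a description of how the list was chosen and carry no test. All peaks were taken whose summit, the base of highest signal, lay inside a gene or within 2000 bp of one of its transcription start sites (TSSs). By this rule the 8 genes had 6 peaks in the thresholded list, 33 in the pooled list, 29 in replicate 1 and 30 in replicate 2.

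The upper part of glycolysis, to which Pgi and Pfk belong, spends ATP to make a doubly phosphorylated sugar that is split into triose phosphates. The lower part, from Gapdh to pyruvate kinase, recovers ATP and yields NADH. Drosophila embryos are known to raise transcription of many of these genes together partway through embryogenesis, under the nuclear receptor ERR, and to use the pathway for growth.

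The data were ChIP-seq peak lists from 1 group of 2 biological replicates, made from whole embryos aged 0 to 24 h, with sex not collected. Both replicates came from a fly line with a stable transgene for CG12299 carrying GFP at its C terminus, and the precipitation used an antibody to GFP. No untagged line or other condition was compared, and the control alignment was not analysed here, so signal that the tag or antibody would give without CG12299 cannot be told apart from binding. Embryos of many stages and cell types were mixed, so binding in more cells and stronger binding per cell cannot be told apart.

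The signalValue is the authors' own score for a peak, on a scale that is not stated. The thresholded and pooled lists share their values, while each replicate's list has its own. Peaks are therefore ranked by signalValue inside 1 list at a time, and no replicate value is set against another list's. Peaks kept at a set irreproducible discovery rate, which limits disagreement between the replicates' rankings, form the thresholded list of 3672. They were the 3672 pooled peaks of highest signalValue, so a gene without a thresholded peak had pooled peaks below a signalValue of 107.0 or none. The pooled list held 29999 positions with a median of 44.4, and the thresholded median was 154.8. No read counts were given, so the depth is unknown. Peak lists carry no expression values, and tissue markers were not examined.

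The sequences around 5 summits set strong peaks at Gapdh2, Eno, Hex-A and Ldh beside the strongest peak at Pgk. They come from the RefSeq copy of the release 6 assembly, the build named dm6 in the labels, read 5′ to 3′ on the strand of the gene. Gapdh2 on X and Eno on 2L hold the strongest peaks among the 8 genes. Hex-A on X, for a hexokinase that opens the pathway, and Ldh on 3L, for lactate dehydrogenase at its end, hold strong peaks at a like distance from their TSSs. These are examples, and windows at other strong peaks, such as those of CG8036 (648) and Glyp (518), are not given. Each window runs 75 bp to either side of the summit, and that of Eno was shortened to the 105 bp in its intron. Capitals mark TATAAA or TTTAAAA on either strand, so TTTATA and TTTTAAA are the same words read from the other strand.

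Gapdh2 (X:15867895-15868045, plus strand): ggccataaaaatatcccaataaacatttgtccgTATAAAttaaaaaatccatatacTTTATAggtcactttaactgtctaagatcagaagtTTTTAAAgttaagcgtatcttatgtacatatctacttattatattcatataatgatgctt

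Eno (2L:1727881-1727985, minus strand): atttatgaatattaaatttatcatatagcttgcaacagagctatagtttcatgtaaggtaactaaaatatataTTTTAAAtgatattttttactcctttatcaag

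Hex-A (X:9585400-9585550, plus strand): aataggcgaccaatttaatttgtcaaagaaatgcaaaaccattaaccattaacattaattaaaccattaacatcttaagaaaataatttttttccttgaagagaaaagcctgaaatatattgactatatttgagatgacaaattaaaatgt

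Ldh (3L:6262814-6262964, minus strand): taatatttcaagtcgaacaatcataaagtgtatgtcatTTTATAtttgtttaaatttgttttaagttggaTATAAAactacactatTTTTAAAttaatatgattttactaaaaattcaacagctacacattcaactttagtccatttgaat

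Pgk (2L:2751947-2752097, minus strand): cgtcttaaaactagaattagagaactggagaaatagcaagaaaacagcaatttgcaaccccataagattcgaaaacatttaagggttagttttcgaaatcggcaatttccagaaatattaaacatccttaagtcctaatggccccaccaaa

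The first 4 windows lie wholly upstream of the TSS nearest to them and are rich in A and T. Within the 151-bp window the GC content was 25.8% at Gapdh2, 27.8% at Eno, 24.5% at Hex-A and 21.2% at Ldh. The Pgk window above was at 35.8%, close to the mean of 35.0% (SD 8.87) over the 3672 thresholded summits. The mean over the 29999 pooled summits was 40.6% (SD 9.30), and 5.01% of these windows had less GC than that of Gapdh2. Among the members without a thresholded peak, the window at the strongest pooled summit held 32.5% GC at Tpi, 45.0% at Pfk, 47.0% at Pgi, 51.0% at Gapdh1 and 53.0% at Pglym78. The summits at Gapdh1 and Pgi lay in coding sequence, and those at Pfk and Pglym78 in the 5′ UTR. Those at Gapdh2 and Tpi lay outside the gene, and that at Eno in an intron. The low GC content was thus shared by Gapdh2 and Eno and not by the 8 genes as a whole. A difference between these genes cannot be told apart from one between the kinds of sequence at their summits. The thresholded Pgk summits had 35.1%, 35.1%, 35.8% and 47.7%, so a thresholded peak did not always go with a low GC content. Any part of base composition in the signal was not tested.

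The Gapdh2 window held TATAAA at 2 places and TTTAAAA at 1, the Eno window held TTTAAAA across its summit, and the Ldh window held TATAAA at 2 places and TTTAAAA at 1. The Hex-A window and the printed Pgk window held neither word. Of all thresholded windows 30.7% held TATAAA and 19.0% held TTTAAAA, against 20.5% and 10.4% of pooled windows. At these distances from the annotated TSS a TATAAA match is a string of letters and not a called TATA box.

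Other words searched on both strands were TATCGATA, the DNA replication-related element, and TCGATA within it, a word of the insulator protein BEAF-32. GAGAG is a word of the GAGA factor, TGAGTG one of Zeste, AAGGTCA the word bound by ERR, ACGTG or GCGTG the hypoxia response word, and TCAGT a word of the initiator. None of these except TCAGT was found in the windows at the 6 thresholded summits of the 8 genes, in those at the strongest pooled summits of the other 5, or in the Hex-A and Ldh windows. TCAGT occurred at 2 places in 1 window of Pgk. The share of thresholded windows with each word was 3.43% for TATCGATA, 11.6% for TCGATA, 16.4% for GAGAG, 6.13% for TGAGTG, 0.953% for AAGGTCA, 21.7% for ACGTG or GCGTG and 25.8% for TCAGT.

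In the thresholded list 3 of the 8 genes had a peak by the rule: Gapdh2, Pgk and Eno. Of all 18277 genes 24.9% had one, and of the 13968 protein-coding genes 27.6%, so the members' count is not far from the background. The same 3 genes remained when only summits within 2000 bp of a TSS counted, where 23.6% of all genes had one. They also remained within 1000 bp, against 18.7% of all genes, and within 500 bp, against 15.7%. In the pooled list 8 of 8 genes had a peak, against 70.7% of all genes. In replicate 1 it was 8 of 8, against 70.5%, and in replicate 2 again 8 of 8, against 70.8%. The median over the 8 genes of the strongest pooled signalValue was 59.7, with a range from 41.1 to 1671, beside 78.2 over the 12916 genes with a pooled summit in range.

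**Figure D1:**
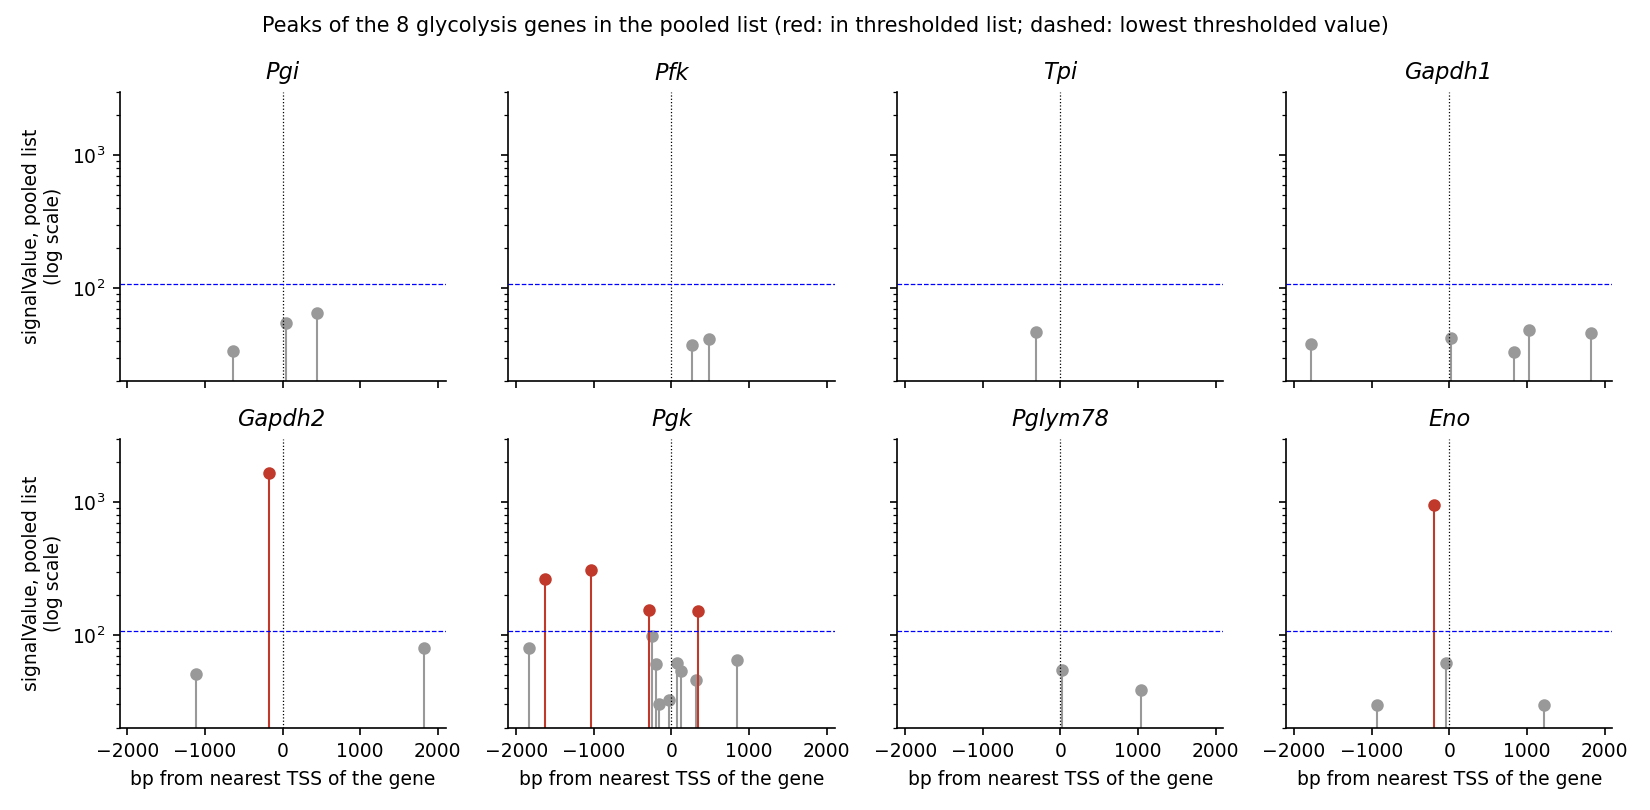
Each panel shows 1 gene, with the signed distance of every pooled summit from the nearest TSS of that gene in bp (negative is upstream) and its signalValue on a log scale. Red points are also in the thresholded list, grey points are not, and the dashed line marks 107.0, the lowest thresholded value. Gapdh2 and Eno each have 1 tall peak just upstream of a TSS, Pgk has 4 lower thresholded ones, and the other 5 genes stay below the line.

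Gapdh2 encodes glyceraldehyde-3-phosphate dehydrogenase, the enzyme that makes NADH at the start of the lower part of the pathway. Its gene lies at X:15868145-15869661 on the plus strand with 2 annotated TSSs, at 15868145 and 15868211. The thresholded peak, X:15867809-15868132, had a signalValue of 1671 and ranked 4 of 3672, with its summit at 15867970, outside the gene and 175 bp upstream of the first TSS. In replicate 1 the overlapping peak had 827 and ranked 4, with its summit 167 bp upstream. In replicate 2 it had 851 and ranked 7, with its summit 179 bp upstream. The summits of both replicates lay within 8 bp of the pooled one, and the rank was among the highest in each list.

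No other gene had a TSS within 2000 bp of this summit. The peaks ranked next to it in the thresholded list were X:2703719-2704052, with 1662, whose nearest TSS is that of the sugar nucleotide transporter gene Ugalt, and 2L:480918-481269, with 1866, at the zinc finger gene cbt. Ranked by the strongest pooled peak of each gene, Gapdh2 stood at 5 among 12916 genes. Ranked likewise within each replicate's list, it stood at 4 among 12893 genes in replicate 1 and at 13 among 12944 in replicate 2. A strong peak near several genes counts for each of them, so the place of a gene can be lower than the rank of its peak. The peak was 324 bp wide. In the thresholded list 514 of the 3672 peaks (14.0%) were narrower than the usual 384 bp, and these had a median signalValue of 425 against 144 for the rest.

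The region around Gapdh2 held little else. The other pooled peaks in range had 50.7, at 1117 bp upstream, and 80.4, at 1822 bp downstream. The latter lay 150 bp upstream of the neighbouring gene CG16952. Both had an overlapping peak in each replicate, with 30.1 and 52.1 in replicate 1. In replicate 2 the first had 16.3, and at the second were 2 peaks of 33.6 and 23.8. Just past the 2000-bp limit was a pooled peak of 30.9 at 2046 bp downstream, and the nearest thresholded peak outside the limit had 182 and lay 2813 bp downstream. On the inner side the members' farthest peaks within the limit were both at Pgk, a pooled one of 80.3 at 1829 bp and a thresholded one of 264 at 1629 bp.

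Gapdh1 encodes the same enzyme and lies on another chromosome, at 2R:7791901-7793380 on the minus strand, with TSSs at 7793230 and 7793380. It had no thresholded peak. Its 5 pooled peaks had 48.0, 45.9, 42.2, 38.0 and 32.9. The strongest, 2R:7792008-7792391, ranked 13304 of 29999, with its summit in the coding sequence 1030 bp downstream of a TSS. The only pooled summit close to a Gapdh1 TSS, 18 bp downstream and in the 5′ UTR, had 42.2 and ranked 16326.

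The strongest Gapdh1 peak was at a different site in each replicate. In replicate 1 its 3 peaks had 29.9, 28.0 and 24.7 and none lay near a TSS. In replicate 2 its 3 peaks had 37.7, 25.6 and 24.8, and the first ranked 6000 with its summit 57 bp downstream of a TSS. As a percentile of the list, where 100 is the strongest, the strongest Gapdh1 peak stood at 55.7 in the pooled list, 56.0 in replicate 1 and 80.0 in replicate 2. The replicate 1 peak behind this value lay 1810 bp downstream, outside the gene and nearest to CG12824, while that of replicate 2 was the one near the TSS. At the site of the strongest pooled peak, present in both, the percentiles were 50.9 and 61.6. The strongest Gapdh2 peak stood at 99.99 in the pooled list and in replicate 1 and at 99.98 in replicate 2, at the ceiling of this measure. The replicates' values for the paralogues did not overlap, but with 2 replicates and genes chosen for this contrast no test was made.

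**Figure D2:**
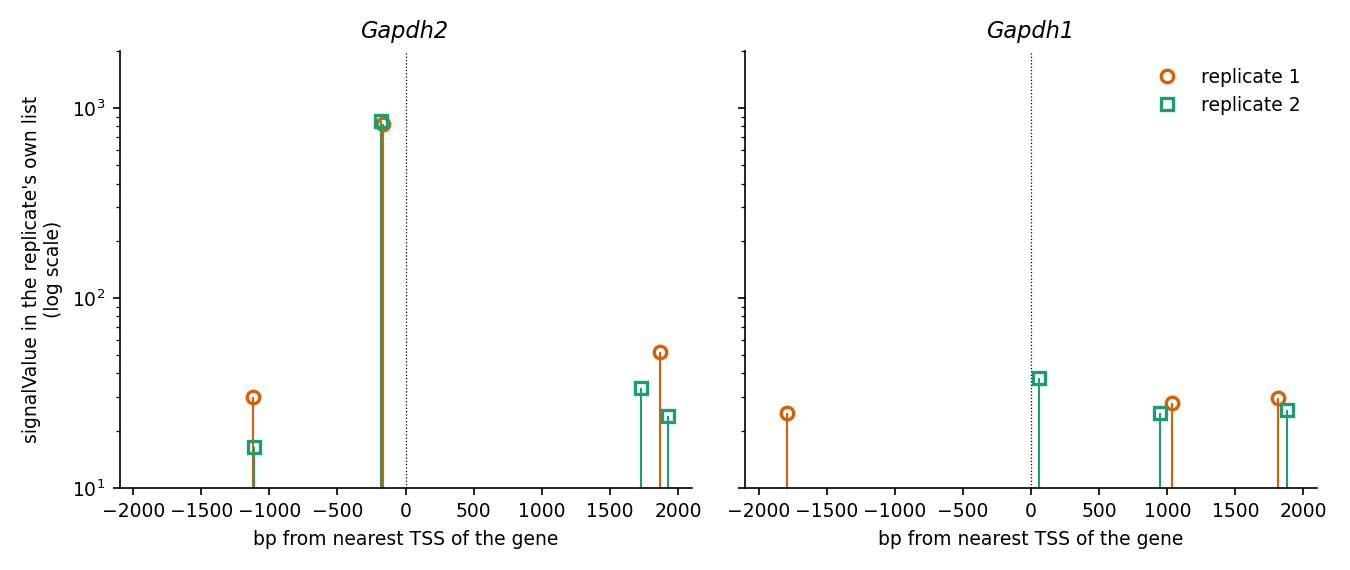
Distance of each summit from the nearest TSS of the gene in bp (negative is upstream) against its signalValue on a log scale, for Gapdh2 and Gapdh1, with replicate 1 as circles and replicate 2 as squares. Scales of the replicates' lists are separate. At Gapdh2 both replicates have 1 peak above 800 just upstream of the TSS, while all Gapdh1 peaks are below 40.

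The paralogues are alike in their coding sequence and not in the sequence under the Gapdh2 peak. The coding sequences are both 996 nt long, with 884 identical positions (88.8%), and the encoded proteins share 323 of 332 residues (97.3%). The longest identical run in the coding sequences is 38 nt. Between the 324 bp of the Gapdh2 peak and the Gapdh1 gene with 2000 bp on either side, the longest identical run is 12 bp. Every 32-mer of the Gapdh2 peak, 293 of 293, occurs once in the assembly on either strand, and at the strongest Gapdh1 peak 352 of 353 do. How the authors placed reads with several positions is not given in the sources used here.

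Pgk encodes phosphoglycerate kinase, which makes the first ATP of the lower part. It lies at 2L:2746880-2753068 on the minus strand, and its 5 annotated TSSs spread over most of the gene. It had 4 thresholded peaks and 13 pooled ones, the most of the 8 genes. With 6189 bp it is also one of the longer genes of the list, and a long gene with many TSSs offers more room for a summit to fall in range. Pfk, with 7718 bp but 2 annotated TSSs, had 2 pooled peaks. Any part of gene length or TSS number in these counts was not tested.

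The strongest Pgk peak, 2L:2751830-2752213, had 308 and ranked 497 of 3672, with its summit in an intron, 1033 bp upstream of an inner TSS. In replicate 1 it had 182 and ranked 404, and in replicate 2 it had 126 and ranked 691. The next, 2L:2754505-2754888, had 264 and ranked 666, with its summit 1629 bp upstream of the outermost TSS. In replicate 1 it had 189 and ranked 370, and in replicate 2 it had 103 and ranked 997. These peaks were in the upper part of every list but well below those of Gapdh2 and Eno.

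The other thresholded Pgk peaks were near the middle of the list. One, 2L:2748582-2748965, had 153 and ranked 1877, with its summit in the 5′ UTR and 287 bp upstream of the innermost TSS. Replicate 1 gave it 59.5 and rank 3913, and replicate 2 gave it 94.7 and rank 1156. The fourth, 2L:2752539-2752922, had 151 and ranked 1926, with its summit 337 bp downstream of the outermost TSS. Its replicate peaks had 83.7 and 66.2, and the replicate 2 summit lay 208 bp away.

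The gene Bacc starts inside and beside Pgk on the opposite strand, and 3 of the 4 thresholded summits are nearer to a TSS of Bacc than to one of Pgk. The strongest lay 423 bp upstream of a Bacc TSS, the 264 peak 1464 bp downstream of one, and the 151 peak 69 bp upstream of one. Only the summit at 287 bp had a Pgk TSS as its nearest. Which of these genes a peak relates to cannot be told from the lists.

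Eno encodes enolase, which makes phosphoenolpyruvate near the end of the pathway. It lies at 2L:1724768-1729636 on the minus strand with TSSs at 1727717, 1728463 and 1729636. Its thresholded peak, 2L:1727746-1728071, had 959.7, ranked 39 of 3672 and was 326 bp wide. The summit lay 193 bp upstream of the innermost TSS, in an intron of the longer transcripts. In replicate 1 it had 485 and ranked 39, and in replicate 2 it had 474 and ranked 38. The summits were 202 and 170 bp upstream, and the ranks of the replicates were nearly the same.

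The other 2 Eno TSSs had no comparable peak. A pooled peak of 62.0 lay 38 bp upstream of the outermost TSS, with 30.3 in replicate 1 and 32.6 in replicate 2, and the middle TSS had no pooled peak nearer than the strong one. Pooled peaks of 29.9, in the coding sequence, and 29.7, toward the gene CG31937, were near the lowest value of the list, 29.2. The nearest TSS of another gene was that of Rrp40, for a subunit of the RNA exosome, with the strong summit 822 bp upstream of it. The TSS of CG31937 was 1977 bp away.

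Pgi, Pfk, Tpi and Pglym78, like Gapdh1, had no thresholded peak. Pgi, for glucose-6-phosphate isomerase, had 65.2 in the pooled list at 444 bp downstream of a TSS in the coding sequence, where it ranked 8256. The same site had 41.9 in replicate 1 and 22.2 in replicate 2. A second Pgi peak had 55.0 in the 5′ UTR at 46 bp downstream, and the third, with 33.9, was nearest to the gene lin.

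Pfk encodes phosphofructokinase, a main point of control of the pathway. Its pooled peaks of 41.1 and 37.3 lay 483 and 263 bp downstream of a TSS, both in the 5′ UTR, and the stronger ranked 17081, the lowest of the 8 genes. Replicate 1 had 27.4 there and replicate 2 had 23.4 with its summit 165 bp off. The pooled values were below the pooled median of 44.4, and the replicate values stood at the percentiles 48.9 and 57.8 of their own lists.

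Tpi, for triosephosphate isomerase, had 1 pooled peak of 46.5 at 312 bp upstream, which ranked 13984 and lay 97 bp from the TSS of the noncoding gene asRNA:CR46082. Its replicate values were 29.2 and 20.2. Pglym78, for phosphoglycerate mutase, had 54.2 at 26 bp downstream of a TSS, where it ranked 11090, with 33.8 in replicate 1 and 34.9 in replicate 2. The oppositely oriented gene CG11882 starts 216 bp from that summit. A second Pglym78 peak of 38.6 lay in the coding sequence.

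**Figure D3:**
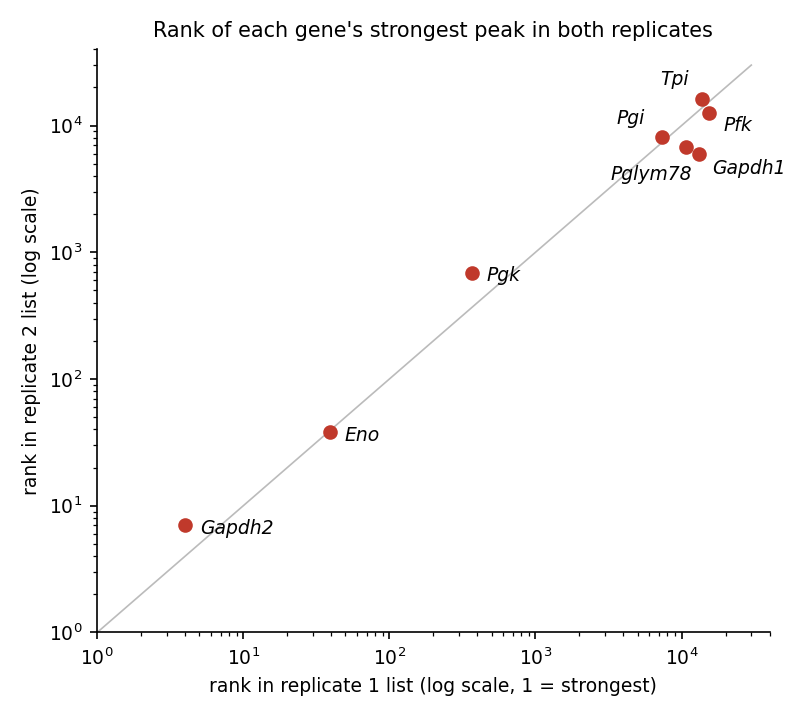
Rank of the strongest peak of each of the 8 genes in the list of replicate 1 (horizontal) and of replicate 2 (vertical), both on log axes where 1 is the strongest, with the line of equal rank in grey. Gapdh2, Eno and Pgk keep their order in both replicates, though the strongest Pgk peak is at a different site in each. The other 5 genes lie together at ranks from 6000 to 16076, and for Gapdh1 and Pgi the sites also differ between the replicates.

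The strongest peaks of the 8 genes had the order Gapdh2, Eno and Pgk in both replicates. For Pgk these were different sites, the peak outside the gene in replicate 1 (rank 370) and an intron peak in replicate 2 (rank 691). Pgi, Pglym78, Gapdh1, Tpi and Pfk followed in replicate 1, with ranks of 7337, 10658, 13214, 13709 and 15321. In replicate 2 the order was Gapdh1, Pglym78, Pgi, Pfk and Tpi, with ranks of 6000, 6816, 8178, 12645 and 16076. The order among these 5 thus changed with the replicate, and no order is read among them. For Gapdh1 and Pgi the strongest peaks were also at different sites in the replicates. That of Pgi in replicate 2 lay 525 bp upstream, nearest to the gene lin. The Pgi site that ranked 7337 in replicate 1 ranked 13699 in replicate 2. The lists of the replicates hold 30000 and 29999 peaks, so equal ranks mean nearly equal places.

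Of the 33 pooled peaks of the 8 genes, 19 had their summit within 500 bp of a TSS of the gene and 16 lay upstream of the nearest one. The summit was in the 5′ UTR for 7, in the coding sequence for 5, in an intron for 9 and outside the gene for 12. For 12 of the 33 the nearest TSS belonged to another gene. Of the 6 thresholded peaks 5 were upstream of the nearest TSS of the gene, and none was in coding sequence. For 3 of the 6 the nearest TSS belonged to another gene. At Pgk, with 5 TSSs, the direction depends on which is nearest: the strongest peak was 1039 bp downstream of one in replicate 2.

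The other genes of the pathway gave a like mixture. Of 10 genes for the remaining steps and for paralogues, 2 had a thresholded peak, a share near the 24.9% of all genes. Hex-A had 695 and ranked 91, at 200 bp upstream, with 388 and rank 65 in replicate 1 and 317 and rank 107 in replicate 2. PyK, for pyruvate kinase at the last step, had 129.8 and ranked 2550, at 405 bp upstream, with 83.7 in replicate 1 and 54.5 in replicate 2. Peaks in the pooled list alone were found at Ald1, for aldolase, with 71.1, and at CG9961, a relative of Pgk, with 33.1. The hexokinase genes Hex-t2 and Hex-C also had a peak in the pooled list alone, of 59.5 and 30.5. These lay 1881 and 1601 bp downstream of the TSS, past the end of the gene, and the lowest pooled value was 29.2. Hex-t1, Ald2, Pglym87 and CG7069, all paralogues of genes named here, had no pooled peak in range.

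**Figure D4:**
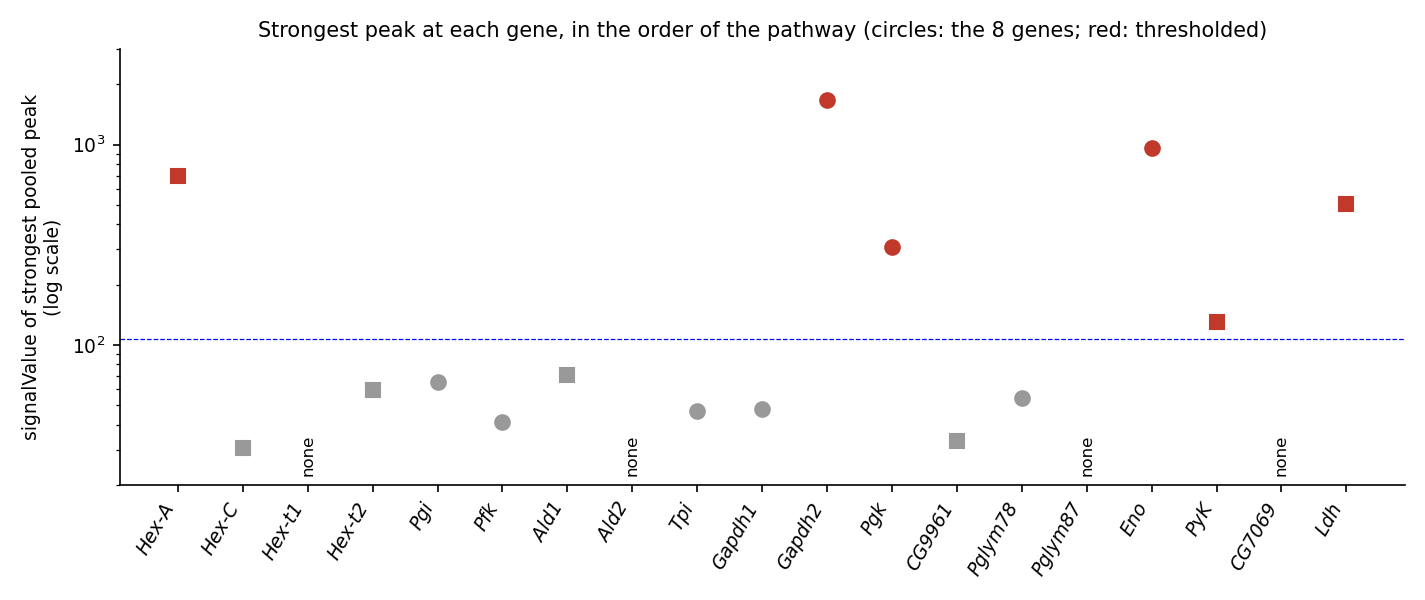
The signalValue of the strongest pooled peak, on a log scale, for the genes of glycolysis and Ldh in the order of the pathway. Circles are the 8 genes and squares the others, red marks a thresholded peak, the dashed line is the lowest thresholded value and "none" marks a gene with no pooled peak in range. Strong peaks occur at the first step (Hex-A, 695), at Gapdh2 (1671) and Eno (959.7) and at Ldh (503), with a lower thresholded peak at Pgk (308). The mutase step between Pgk and Eno (Pglym78, 54.2) and the genes from Pgi to Gapdh1 stay at or below 71.1.

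Where a step has several genes, at most 1 of them had a thresholded peak, beside 24.9% of all genes. At that share most genes of a small set have none, so no pattern among paralogues is read from these counts. Gapdh2 had one and Gapdh1 did not, Hex-A did and Hex-C, Hex-t1 and Hex-t2 did not, Pgk did and CG9961 did not, and PyK did and CG7069 did not. For Pglym78 and Pglym87, and for Ald1 and Ald2, neither gene had one. These genes also differ in length and in the number of annotated TSSs, from 1 to 5. The counts were read off after the values were seen, with no test.

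Genes of pathways that join glycolysis also had thresholded peaks, and their counts are given beside 24.9% of all genes and 3 of the 8 enzymes. In the list of glycogen, trehalose, lactate, glycerol phosphate and gluconeogenesis genes it was 10 of 17, and 9 of 17 within 500 bp of a TSS, where all genes gave 15.7%. Those with the strongest peaks were Glyp, for glycogen phosphorylase, with 518 at 181 bp upstream, and Treh, for trehalase, with 506 at 938 bp upstream. They were followed by Ldh, with 503 at 195 bp upstream, and PCB, for pyruvate carboxylase, with 215 at 265 bp upstream. The lists were made with earlier results known, and the shares are not set against each other by a test.

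In the pentose phosphate pathway, which draws on glucose 6-phosphate ahead of Pgi, 4 of 7 genes had a thresholded peak, and 3 of 7 within 500 bp of a TSS. The 4 were CG8036, for a transketolase, with 648 at 236 bp upstream, Zw, for glucose-6-phosphate dehydrogenase, with 465, Taldo, for transaldolase, with 141, and Rpe, for ribulose-phosphate epimerase, with 118. Of pyruvate dehydrogenase and citric acid cycle genes it was 9 of 18, and 7 of 18 within 500 bp, led by Idh3g, for an isocitrate dehydrogenase subunit, with 615, Fum1, for fumarase, with 376, kdn, for citrate synthase, with 336, and mAcon1, for aconitase, with 186. Of 7 regulators of glycolysis genes 5 had one, 4 of them within 1000 bp of a TSS and 3 within 500 bp. The values were 260.3 at Hph, for the oxygen sensor that marks Sima for decay, 257 at sima, for the hypoxia factor, 137 at ERR and 126 at bigmax, a partner of Mondo in sugar sensing. The sima peak lies inside a gene of 63488 bp, 6724 bp from its nearest TSS. Within 500 bp the 8 enzymes still gave 3 of 8, 37.5%, beside 15.7% of all genes. It was 42.9% in the pentose phosphate list, 38.9% in the citric acid cycle list and 42.9% among the regulators. The list from glycogen to gluconeogenesis gave 52.9%, and the 10 other glycolysis genes gave 20%. The median of the strongest pooled signalValue was 132 in the list from glycogen to gluconeogenesis and 118 in the pentose phosphate list. It was 108 in the citric acid cycle list and 126 among the regulators. Beside these stood 59.7 for the 8 enzymes and 65.3 for the other glycolysis genes with a pooled summit.

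The distance of about 200 bp upstream that Gapdh2 and Eno share was seen at other strong peaks. In a window from 150 to 250 bp upstream of the nearest TSS of any gene, chosen after these values were seen, lay 377 of the 3672 thresholded summits (10.3%) and 27 of the 100 strongest. Per gene, the strongest thresholded summit lay in that window of its own TSS for 611 of 4542 genes (13.5%). Among the 8 enzymes it did so for Gapdh2 and Eno, of 3 with a thresholded peak. Over all 67 listed genes, it did so for 10 of 33, among them Hex-A, Glyp, Ldh, CG8036 and Taldo. Many strong peaks at other genes therefore have the position of the Gapdh2 and Eno peaks.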

How the data were processed

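ChIP-seq peaks of CG12299-GFP from 2 replicates of whole embryos (1 group) were analysed as deposited in 4 narrowPeak lists. Per the deposited manifests, peaks were called by the authors on each replicate and on both together, each against 1 control alignment, and a thresholded list was derived from these by irreproducible discovery rate. The build was dm6 and sonication gave a range of 200 to 800 bp, per the labels. Which aligner and caller were used is not given in the sources used here. Values of the deposited signal column (signalValue) are scores of the authors' caller. In the deposited −log10 q-value column many peaks tie at the maximum, so it served only as an alternative ranking. Depth is unknown, since no counts were given, and where the caller places a summit moves distances and windows. A position listed more than once, found 1 time in the pooled list and 1 time in that of replicate 2, was kept with its higher signalValue.

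Summits were set against the 18277 genes and 24111 TSSs of the Ensembl release 115 annotation on the main chromosomes, without transposable elements. A replicate peak matches a pooled one where they overlap by at least 1 bp. The members and lists were chosen with earlier results of these data known. Of the 67 listed genes all were matched, 3 through RefSeq synonyms. Named genes are the 8 enzymes, all genes of the other glycolysis steps, up to 4 genes of each other list with the strongest thresholded peaks, genes with a TSS within 2000 bp of the members' strongest thresholded summits, and those at the peaks ranked beside Gapdh2; the neighbours of weaker peaks were named after values were seen. No test was made. The assignment of summits to genes was tested on simulated data, with peaks planted at genes with 1 annotated TSS. The choice of the nearest among several TSSs, which all 8 enzymes need, was not covered. Alternatives covered the range, the nearest TSS alone, the stronger 50% of peaks, coding transcripts alone, ranking by q-value and each replicate alone. Analyses used Python 3.11.15, numpy 2.4.6, pandas 2.3.3 and Biopython 1.88, and plots matplotlib 3.10.9. RefSeq promoter and protein tables were not used here.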

Additional observations from a re-analysis of the deposited data

How the results depend on the processing

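The count of 3 members with a thresholded peak (Gapdh2, Pgk and Eno) was the same under every alternative tried. Of all genes 14.2% were called by the nearest TSS alone and 14.4% with the stronger 50% of peaks. With coding transcripts alone it was 27.6%, a share of the protein-coding genes. The count of other glycolysis genes went from 2 to 1, Hex-A, with the stronger 50% of peaks, since PyK ranks below the middle of the list. With the 3672 strongest peaks of 1 replicate in place of the thresholded list, these counts stayed at 3 and at 2. Of all genes 24.5% were then called without replicate 1 and 24.8% without replicate 2. Ranked by −log10 q-value, the percentile of the Gapdh2 peak went from 99.99 to 97.068 because 1760 peaks tie at the top value. Without replicate 1 or 2 it ranged from 99.98 to 99.99. The percentile of the strongest Gapdh1 peak, 55.654, ranged from 55.955 to 80.002 without 1 replicate; without replicate 1 a peak near its TSS is the strongest, and the cause of that difference was not tested. Within 500 bp of a TSS it was 45.58. No paired analysis was possible because the labels give 1 group. The limits are 2 replicates, no untagged line, unknown depth and a signalValue of unstated scale.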
